A study of Mus musculus with 16 samples.

Results

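The colony-stimulating factors are the growth factors of the myeloid lineage, and the genes described here are 1 of these factors and 5 receptor genes: Csf1, Csf1r, Csf2ra, Csf2rb, Csf2rb2 and Csf3r. They were taken by gene symbol from the deposited table of raw counts, in which 6 of the 32166 genes carried these names, and all 6 passed the filter on low counts in every comparison. Their counts were read in microglia/macrophages from the brains of male C57BL/6 mice aged 10 to 12 weeks, on day 3 after transient middle cerebral artery occlusion (MCAO, a filament model of ischemic stroke) or a sham procedure.

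The 16 libraries formed 4 groups. Vdr-cKO mice carried 2 floxed alleles of the vitamin D receptor gene (Vdr f/f) and 1 Cx3cr1 CreER allele, so that tamoxifen given before surgery deleted Vdr in Cx3cr1-expressing cells, and Vdr f/f littermates without Cre were the controls. The floxed alleles were thus common to every group, whereas the CreER allele, which takes the place of 1 copy of Cx3cr1, was carried by Vdr-cKO mice alone. There were 5 sham control, 3 sham Vdr-cKO, 4 MCAO control and 4 MCAO Vdr-cKO libraries. The sources do not state that each library came from 1 mouse, so the p-values below measure the spread between libraries.

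Total counts per library ran from 13795946 to 17836796. Counts of Vdr were low, at 1 to 14 in sham control, 3 to 9 in sham Vdr-cKO, 21 to 51 in MCAO control and 22 to 119 in MCAO Vdr-cKO, and since they cover the whole gene they do not check a deletion of part of it. Cx3cr1 was lower in Vdr-cKO than in control libraries after sham (log2 fold change -1.16, SE 0.20, adjusted p = 0.0279) and after MCAO (-1.29, SE 0.10, adjusted p = 4.04e-05), in mice that carry 1 copy of it. The sum over 11 microglial markers was 23641 to 29943 CPM (counts scaled to 1000000 per library) in sham control, 23236 to 24763 in sham Vdr-cKO, 16145 to 17335 in MCAO control and 12414 to 16874 in MCAO Vdr-cKO, while 7 markers of T and NK cells summed to at most 7.46 CPM. Cx3cr1 was 1 of the 11 microglial markers, so its lower level in Vdr-cKO libraries lowers the sum of these markers there. None of the other microglial markers was lower between genotypes at an adjusted p under 0.05. Some libraries stood apart within their group. MCAO Vdr-cKO replicates 1 and 2 held 2374 and 1978 CPM of 10 monocyte markers against 882 and 902 in replicates 3 and 4, and sham control replicates 2, 4 and 5 held 1128 to 2022 CPM of 11 neutrophil markers against 526 and 719.7 in replicates 3 and 1.

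CSF1 (also M-CSF) and IL-34 share the receptor tyrosine kinase CSF1R, whose signal microglia need to survive in the adult brain. GM-CSF, the product of Csf2, binds a receptor made of a specific alpha chain (Csf2ra) and a signalling beta chain (Csf2rb) that it shares with IL-3 and IL-5, and mice have a close copy of the beta chain, Csf2rb2, which serves IL-3 alone. G-CSF, the product of Csf3, acts on CSF3R, best known on neutrophils and their precursors. The cytokine receptors of this family have no kinase of their own and signal through JAK2 and STAT proteins.

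Per kilobase of exon model, the order of the 6 genes in sham control libraries was Csf1r (1656 ± 137 CPM per kb, mean ± SD, n = 5), Csf3r (313 ± 36.7), Csf2ra (62.3 ± 12.7), Csf2rb2 (24.9 ± 0.949), Csf2rb (24.8 ± 1.06) and Csf1 (4.82 ± 1.07). Csf1r held rank 9 of 31489 genes on this scale, Csf3r rank 63 and Csf1 rank 7490. After MCAO the order of the first 3 was the same, while Csf1 had moved to rank 1469 in control and rank 1166 in Vdr-cKO libraries and Csf1r to ranks 27 and 28. The means of the 2 beta chain genes differed by less than the SD between libraries in each group, but within a library the level of Csf2rb2 per kb was above that of Csf2rb in all 7 Vdr-cKO libraries (by 3.57 to 6.52 CPM per kb after MCAO and 0.91 to 1.96 after sham) and in 3 of 9 control libraries (-2.92 to 3.72). The order of the 2 genes and these differences depend on the exon models, of 7277 bases for Csf2rb and 4740 for Csf2rb2. The transcripts Csf2rb-201 and Csf2rb2-201 were close in length, with 4715 and 4691 windows of 50 bases. In CPM, without division by length, Csf2rb was above Csf2rb2 in every library.

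**Figure D1:**
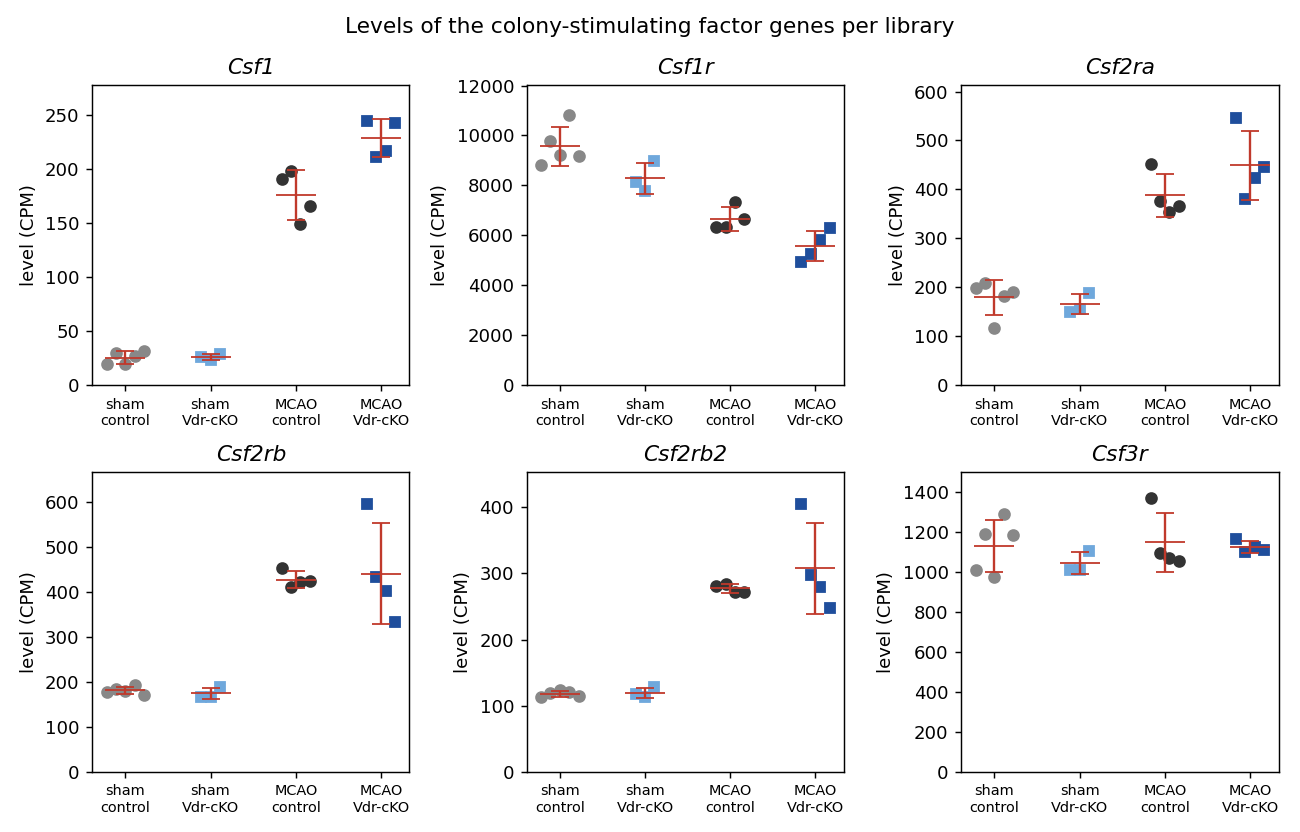
Level in CPM of each of the 6 genes (y axis, linear from 0) in the 4 groups (x axis). Points are libraries in replicate order, and red lines are the group mean ± SD with n of 5, 3, 4 and 4. Csf1, Csf2ra, Csf2rb and Csf2rb2 are higher in every MCAO library than in every sham library, Csf1r is lower in every MCAO library, and the groups of Csf3r overlap.

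With a call set at an adjusted p under 0.05, 4 of the 6 genes of control mice were higher after MCAO than after sham and 1 was lower (edgeR quasi-likelihood test, Benjamini-Hochberg over all genes tested), against a background of 31.2% of 16089 genes higher and 32.3% lower. In Vdr-cKO mice the counts were again 4 and 1, against 29.3% of 16357 genes higher and 28.8% lower. Calls were frequent over all genes, so the counts are read beside the sizes given below. The surgery comparisons of the 2 genotypes share no library, but each shares its MCAO or sham libraries with the comparison of genotypes. The CPM of the MCAO and sham libraries did not overlap for 5 of the 6 genes in control mice, where 52.4% of all genes did not overlap, and for 5 of 6 where Vdr was deleted, with 60.8% of all genes.

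Csf1 (ENSMUSG00000014599, chr3:107741048-107760469 on GRCm38, minus strand) encodes the CSF1 ligand and showed the largest difference of the 6 between MCAO and sham. Sham control replicates 1 to 5 held 19.5, 29.4, 19.7, 26.7 and 31.9 CPM, and sham Vdr-cKO replicates held 26.0, 23.0 and 29.2 CPM. MCAO control replicates held 191, 198, 149 and 166 CPM, and MCAO Vdr-cKO replicates 245, 212, 217 and 243 CPM. Every MCAO library was thus above every sham library, and every MCAO Vdr-cKO library was above every MCAO control library, while the sham groups overlapped. Between the MCAO groups, 13.6% of all genes tested did not overlap. The rise after MCAO was 6.80-fold in control (95% interval 5.44 to 8.49, log2 fold change 2.77, SE 0.15, adjusted p = 1.32e-08) and 8.75-fold in Vdr-cKO mice (7.32 to 10.5, log2 3.13, SE 0.12, adjusted p = 2.48e-08). The 10 monocyte markers summed to 108 to 258 CPM in sham control and 416 to 890.0 in MCAO control libraries, and to 146 to 192 in sham and 882 to 2374 in MCAO Vdr-cKO libraries, and their part in the rise of Csf1 was not tested. The difference between the rises of Csf1, tested as an interaction of genotype and surgery, was 0.36 on the log2 scale (SE 0.20, adjusted p = 0.424).

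Among MCAO libraries, Csf1 was 1.31-fold higher in Vdr-cKO than in control (interval 1.13 to 1.53, log2 0.39, SE 0.10, adjusted p = 0.0479). It was the only one of the 6 genes called in this comparison, where 3.24% of 15286 genes were called higher and 1.64% lower. The call was lost when any 1 of MCAO control replicates 1, 3 and 4 or of MCAO Vdr-cKO replicates 1 to 4 was left out and held only without MCAO control replicate 2 (adjusted p 0.0499 to 0.158 over the 8 fits), with a log2 difference between 0.32 and 0.45 throughout. Without MCAO Vdr-cKO replicates 1 and 2 together it was 0.40 (SE 0.11, adjusted p = 0.0822). Among sham libraries the log2 difference between genotypes was 0.01 (interval -0.36 to 0.38, adjusted p = 0.994). It was 0.38 (SE 0.15, adjusted p = 0.650) against sham control replicates 1 and 3 alone, the libraries with the lowest Csf1.

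The sequence before the RefSeq start of Csf1 is shown because this gene rose most. The capitals mark its match to the NF-kB motif (GGG and TTCC parted by any 3 bases), read on the reverse strand 154 to 145 bases before the start, in chr3:107760470-107760719 (GRCm38.p6, minus strand, RefSeq).
Csf1 promoter: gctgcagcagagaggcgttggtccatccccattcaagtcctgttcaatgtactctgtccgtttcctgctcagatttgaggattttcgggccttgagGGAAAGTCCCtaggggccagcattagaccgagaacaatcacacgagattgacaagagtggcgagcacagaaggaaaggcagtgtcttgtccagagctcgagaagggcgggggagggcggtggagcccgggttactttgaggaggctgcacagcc
Of 32851 RefSeq mouse promoters of the same 250 bases, 4.65% held this motif on either strand. The AP-1 motif TGANTCA (6.75% of promoters), the STAT motif TTCNNNGAA (7.02%), the PU.1 core GAGGAA (23.3%), the nuclear receptor hexamer AGGTCA bound by VDR (14.0%) and the TATA box TATAAA (12.4%) had no match in this window.

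The other ligands were at or near 0. Csf2 had no count in any sham library or MCAO control library and 0 to 3 counts in MCAO Vdr-cKO libraries. Csf3 had 0 to 2 counts in sham control, 1 to 4 in sham Vdr-cKO, 1 to 6 in MCAO control and 1 to 8 in MCAO Vdr-cKO libraries. Il5 had at most 1 count in a library, and Il3 was not among the symbols used here. Il34, the second ligand of CSF1R and chiefly a neuronal product, had 10 to 21 counts in sham control and 1 to 11 in MCAO control (log2 fold change -1.61, SE 0.52, adjusted p = 0.0164), and 10 to 18 and 3 to 10 in the Vdr-cKO groups (-1.03, SE 0.46, adjusted p = 0.0783). Of all these ligands, Csf1 was the one with high counts after MCAO, at 2120 to 3647 per library.

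Csf1r (ENSMUSG00000024621, on chromosome 18 of GRCm38, 61100598 to 61132149, plus strand) encodes the CSF1 receptor and fell after MCAO in both genotypes. Sham control replicates held 8814, 9771, 9208, 10838 and 9171 CPM, and sham Vdr-cKO replicates 8118, 7778 and 8982 CPM. MCAO control replicates held 6321, 6330.2, 7338 and 6635 CPM, and MCAO Vdr-cKO replicates 4935, 5261, 5830.3 and 6290.1 CPM. All MCAO libraries lay below all sham libraries, the sham groups overlapped, and the highest MCAO Vdr-cKO library lay just below the lowest MCAO control library. Its share of all counts was 0.981 to 1.13% in sham control libraries and 0.433 to 0.574% in MCAO Vdr-cKO libraries.

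The fitted ratio of MCAO to sham for Csf1r was 0.684 in control (interval 0.600 to 0.780, log2 fold change -0.55, SE 0.09, adjusted p = 0.000148) and 0.671 in Vdr-cKO mice (0.553 to 0.813, log2 -0.58, SE 0.13, adjusted p = 0.00249), with an interaction of -0.03 (SE 0.14, adjusted p = 0.942). Markers of microglia moved with it: 9 of 11 were lower and 1 higher after MCAO in control (median log2 fold change -1.09, median of all genes -0.05), and 9 of 11 lower and 0 higher in Vdr-cKO mice (-1.17, all genes -0.02). Over all genes, 32.3% were lower and 31.2% higher in control, and 28.8% and 29.3% in Vdr-cKO mice. The receptor's fall was smaller than the median of these markers, and the part of the markers' change in it was not tested. In bulk libraries, fewer cells of a type and less RNA per cell cannot be told apart.

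Between genotypes, Csf1r did not pass the test. Its log2 difference, Vdr-cKO against control, was -0.24 after MCAO (interval -0.49 to 0.00, SE 0.11, adjusted p = 0.264) and -0.23 after sham (-0.45 to -0.02, SE 0.10, adjusted p = 0.414, unadjusted p = 0.0343). The MCAO groups did not overlap, as was so for 13.6% of all genes tested. Without MCAO Vdr-cKO replicates 1 and 2, which had the least Csf1r and the most monocyte marker RNA, the difference after MCAO was -0.12 (SE 0.10, adjusted p = 0.561). The 8 border macrophage markers summed to 1386 to 1726 CPM in MCAO control and 963 to 1125 in MCAO Vdr-cKO libraries. The 6 markers of dividing cells summed to 29.7 to 44.7 CPM in sham control and 74.0 to 129 in sham Vdr-cKO libraries. The part of these markers in the differences of Csf1r was not tested. Exons of Hmgxb3 on the opposite strand overlap those of Csf1r, and the strand setting of the counting was not given in the sources used here, but Hmgxb3 reached at most 0.891% of the CPM of Csf1r.

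Csf2ra (ENSMUSG00000059326, chr19:61223957-61228429 on GRCm38, minus strand) encodes the alpha chain that binds GM-CSF. Sham control replicates held 197, 209, 116, 182 and 190.4 CPM, and sham Vdr-cKO replicates 150.3, 156 and 188 CPM. MCAO control replicates held 452, 377, 354 and 367 CPM, and MCAO Vdr-cKO replicates 547, 381, 422 and 446 CPM. The lowest MCAO library was well above the highest sham library, whereas the genotypes overlapped within each procedure. Csf2ra rose 2.13-fold after MCAO in control (interval 1.71 to 2.64, log2 1.09, SE 0.14, adjusted p = 3.13e-05) and 2.71-fold in Vdr-cKO mice (2.20 to 3.35, log2 1.44, SE 0.14, adjusted p = 1.01e-05). Monocyte markers rose as well, with 9 of 10 higher after MCAO in control (median log2 fold change 2.08) and 10 of 10 in Vdr-cKO mice (3.59), against 31.2% and 29.3% of all genes. The part of these markers in the rises of Csf2ra and the beta chain genes was not tested. For Csf2ra the interaction was 0.35 (SE 0.22, adjusted p = 0.486), and the log2 difference between genotypes was 0.23 after MCAO (interval -0.03 to 0.49, adjusted p = 0.330) and -0.14 after sham (-0.49 to 0.20, adjusted p = 0.758).

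Csf2rb (ENSMUSG00000071713, chr15:78325752-78353847, plus strand) and Csf2rb2 (ENSMUSG00000071714, chr15:78282507-78305721, minus strand) lie 20030 bases apart on GRCm38 and are near-identical, so that reads can be split between them by the counting. The coding sequence is 2688 bases in the Csf2rb-201 transcript and 2634 in Csf2rb2-201, and 2503 of 2628 aligned bases (95.2%) were identical. The stretch in which they differ most and the longest stretch they share are shown because they mark where reads can and cannot tell the genes apart. In the first, the capitals mark the 16 of 90 bases that differ, at coding positions 308 to 397 of Csf2rb and 311 to 400 of Csf2rb2.
Csf2rb: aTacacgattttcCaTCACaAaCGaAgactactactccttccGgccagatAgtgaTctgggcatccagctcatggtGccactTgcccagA
Csf2rb2: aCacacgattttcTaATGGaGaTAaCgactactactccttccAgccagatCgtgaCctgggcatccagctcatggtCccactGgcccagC
The shared stretch is 242 bases at coding positions 2083 to 2324 of both genes.
Csf2rb and Csf2rb2: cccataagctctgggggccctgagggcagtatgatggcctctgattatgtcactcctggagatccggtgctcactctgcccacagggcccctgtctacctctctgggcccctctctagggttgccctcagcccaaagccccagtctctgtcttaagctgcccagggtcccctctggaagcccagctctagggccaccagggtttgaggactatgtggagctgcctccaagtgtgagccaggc
Of all windows of 150 bases in these transcripts, 3.58% of those of Csf2rb occurred letter for letter in Csf2rb2 and 3.59% the other way, and for windows of 50 bases the shares were 18.9% and 19.0%.

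Csf2rb, the beta chain shared by the receptors of GM-CSF, IL-3 and IL-5, held 177, 184, 179, 192 and 172 CPM in sham control replicates and 166, 167 and 188 CPM in sham Vdr-cKO replicates. After MCAO it held 453, 409.9, 420.5 and 423 CPM in control replicates and 595, 432, 400.4 and 333 CPM in Vdr-cKO replicates. Sham and MCAO were far apart, and the MCAO Vdr-cKO libraries spread to either side of the MCAO controls. Csf2rb2, the IL-3-specific copy, held 112, 119, 123, 121 and 115 CPM in sham control and 118, 113 and 128 CPM in sham Vdr-cKO replicates. After MCAO its levels were 281, 285, 272 and 272 CPM in control and 405, 298, 279 and 248 CPM in Vdr-cKO replicates, in the same order of libraries as Csf2rb within the latter group.

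Csf2rb rose 2.32-fold after MCAO in control (interval 2.11 to 2.54, log2 1.21, SE 0.06, adjusted p = 8.02e-09) and 2.52-fold in Vdr-cKO mice (1.93 to 3.29, log2 1.34, SE 0.17, adjusted p = 8.35e-05). For Csf2rb2 the rises were 2.31-fold (2.11 to 2.52, log2 1.21, SE 0.06, adjusted p = 5.66e-09) and 2.56-fold (2.02 to 3.26, log2 1.36, SE 0.16, adjusted p = 3.53e-05). The SD among MCAO libraries was 18.5 CPM in control and 111 CPM in Vdr-cKO for Csf2rb, and 6.47 and 68.4 CPM for Csf2rb2. In MCAO Vdr-cKO replicates 1 to 4, the monocyte markers summed to 2374, 1978, 882 and 902 CPM and the microglial markers to 12442, 12414, 14969.6 and 16874 CPM, and their part in the spread of the beta chain genes was not tested.

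Neither beta chain gene differed by the test between genotypes. After MCAO the log2 difference, Vdr-cKO against control, was 0.06 for Csf2rb (interval -0.26 to 0.38, adjusted p = 0.875) and 0.16 for Csf2rb2 (-0.12 to 0.45, adjusted p = 0.542). These signs rest on MCAO Vdr-cKO replicates 1 and 2, without which the differences were -0.21 (SE 0.09, adjusted p = 0.255) and -0.06 (SE 0.08, adjusted p = 0.715). After sham they were -0.09 (-0.25 to 0.08, adjusted p = 0.695) and -0.01 (-0.18 to 0.16, adjusted p = 0.971), and the interactions were 0.12 (SE 0.18, adjusted p = 0.816) and 0.15 (SE 0.16, adjusted p = 0.726).

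Csf2rb2 took a nearly fixed share of the counts of the pair. The share was 39.5 ± 0.895% in sham control (n = 5), 40.8 ± 0.564% in sham Vdr-cKO (n = 3), 39.4 ± 1.12% in MCAO control (n = 4) and 41.3 ± 0.953% in MCAO Vdr-cKO libraries (n = 4). Between procedures it differed by -0.08 points in control (two-sided exact permutation test, p = 0.937) and by 0.50 points in Vdr-cKO mice (exact permutation, p = 0.571, smallest possible 0.0571). Between genotypes it was 1.84 points higher in Vdr-cKO after MCAO (exact permutation, p = 0.0857) and 1.26 points higher after sham (exact permutation, p = 0.107), and after adjustment over the 4 comparisons these exact p-values were 0.214 and 0.214. How the counting divided reads between identical exons was not given in the sources used here.

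**Figure D2:**
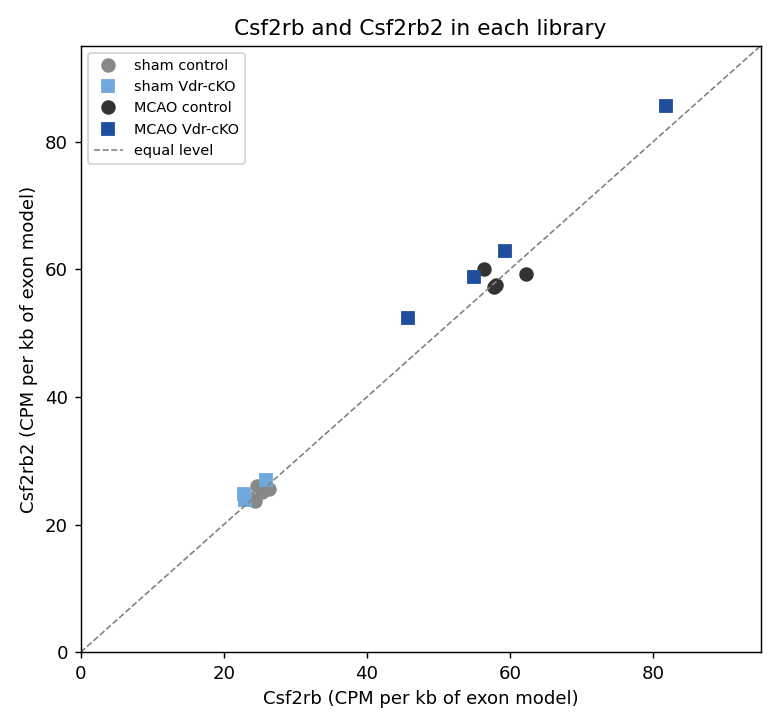
Csf2rb (x axis) against Csf2rb2 (y axis) in each of the 16 libraries, both in CPM per kb of exon model, with 1 point per library and the dashed line at equal levels. The sham libraries lie at 22.9 to 27.0 CPM per kb and the MCAO libraries at 45.8 to 85.5, all near the line. Their nearness to the line depends on the exon models used, of 7277 bases for Csf2rb and 4740 for Csf2rb2.

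The sequences before the RefSeq starts of Csf2ra and Csf2rb2, whose levels rose together, are shown with their motif matches in capitals. The window of Csf2ra, chr19:61228419-61228668 on the minus strand, held the PU.1 core GAGGAA at 14 to 9 and at 8 to 3 bases before the start. The GENCODE model of Csf2ra begins at 61228429, before the RefSeq start, so its edge crosses the first match and the second lies inside it. The window of Csf2rb2, chr15:78305722-78305971 on the minus strand, held that core on the reverse strand at 167 to 162 bases and the STAT motif TTCNNNGAA at 15 to 7 bases before the start.
Csf2ra promoter: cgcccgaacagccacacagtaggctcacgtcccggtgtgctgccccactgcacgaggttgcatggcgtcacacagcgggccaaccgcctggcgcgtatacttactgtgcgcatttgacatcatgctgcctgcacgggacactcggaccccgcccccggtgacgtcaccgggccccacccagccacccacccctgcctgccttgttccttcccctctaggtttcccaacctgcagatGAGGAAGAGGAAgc
Csf2rb2 promoter: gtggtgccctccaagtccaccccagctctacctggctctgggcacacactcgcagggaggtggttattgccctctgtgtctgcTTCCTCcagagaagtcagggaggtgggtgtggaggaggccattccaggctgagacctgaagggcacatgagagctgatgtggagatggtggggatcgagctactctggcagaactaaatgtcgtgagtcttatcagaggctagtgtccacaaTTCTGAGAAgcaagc
The PU.1 core occurs in 23.3% and the STAT motif in 7.02% of all 32851 promoters, and the matches are descriptions of these letters. The promoter of Csf3r held 1 match each to the NF-kB motif (129 to 120 bases before the start) and the PU.1 core (86 to 81 bases). Its RefSeq window ends at 126024658 and the GENCODE model of Csf3r begins at 126024550, so this PU.1 match lies inside the model.

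Csf3r (ENSMUSG00000028859, chr4:126024550-126044440 on GRCm38, plus strand) encodes the G-CSF receptor and was the one gene of the 6 that passed the test in no comparison. Sham control replicates held 1010.3, 1193, 977, 1289 and 1187 CPM, and sham Vdr-cKO replicates 1013, 1013 and 1108 CPM. MCAO control replicates held 1372, 1097, 1071 and 1058 CPM, and MCAO Vdr-cKO replicates 1168, 1101, 1124 and 1109 CPM. All 4 groups overlapped with one another, and MCAO control replicate 1 was the highest library of all. MCAO and sham differed by -0.00 on the log2 scale in control (interval -0.22 to 0.22, adjusted p = 0.986) and by 0.10 in Vdr-cKO mice (-0.10 to 0.30, adjusted p = 0.350). These intervals leave room for ratios of MCAO to sham from 0.856 to 1.16 in control and from 0.935 to 1.23 in Vdr-cKO mice. Genotypes differed by -0.02 after MCAO (-0.23 to 0.20, adjusted p = 0.951) and -0.14 after sham (-0.36 to 0.07, adjusted p = 0.608).

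Neutrophils carry this receptor, and their markers can be set beside it. The 11 markers summed to 719.7, 2022, 526, 1151 and 1128 CPM in sham control replicates 1 to 5 and to 1424, 674, 970.1 and 885 CPM in MCAO control replicates 1 to 4. Sham control replicates 3 and 1 were the lowest of their group in both measures and MCAO control replicate 1 was the highest in both, while among sham controls replicate 2 had the most marker RNA and replicate 4 the most Csf3r. After MCAO, 3 of the 11 markers were higher and 6 lower in control (median log2 fold change -1.16), and 3 higher and 8 lower in Vdr-cKO mice (-1.53). Over all genes, 31.2% were higher and 32.3% lower in control (median -0.05), and 29.3% and 28.8% in Vdr-cKO mice (median -0.02). The part of neutrophil RNA in the level of Csf3r was not tested.

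**Figure D3:**
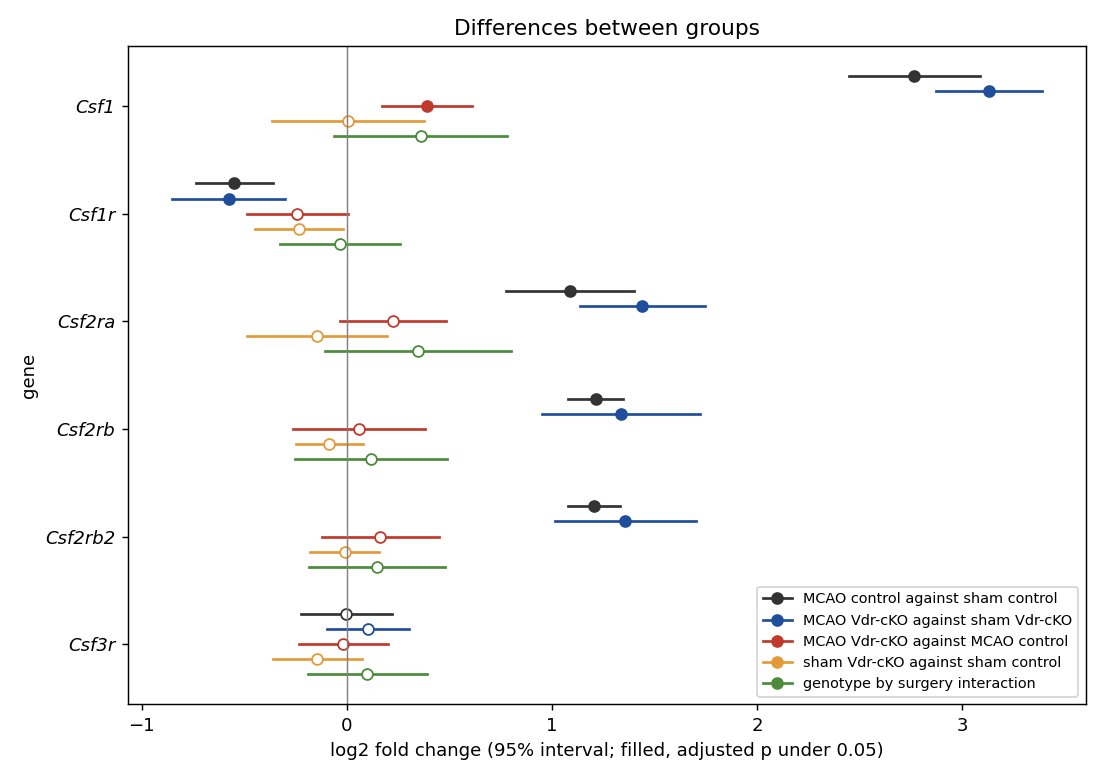
Log2 fold change (x axis) of each of the 6 genes (y axis) in the 4 comparisons of 2 groups and in the interaction of genotype and surgery, with lines for the 95% interval of the edgeR fit. Filled points passed an adjusted p under 0.05: the MCAO against sham values of all genes but Csf3r, and Csf1 in MCAO Vdr-cKO against MCAO control (0.39).

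Between sham Vdr-cKO and sham control, 0 of the 6 genes passed the test by edgeR, DESeq2 or limma-voom, against 0.444% of 16425 genes called higher and 0.0244% lower. With unadjusted p under 0.05, Csf1r alone of the 6 was lower and 0 were higher, against 5.22% lower and 5.96% higher of all genes. The groups did not overlap for 0 of the 6 and for 7.72% of all genes. In the interaction, 0 of 6 passed by any of these tools, against 1.40% of 17335 genes called higher and 1.15% lower, and 0 of 6 at an unadjusted p under 0.05, where 7.09% of all genes were higher and 7.69% lower.

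Genes whose profile over the 16 libraries was most like that of each member were sought by the root mean square difference of centred log2(CPM + 1), among 9498 genes with a mean of at least 10 CPM. Csf2rb and Csf2rb2 were each other's nearest gene (0.068), followed by Apaf1 (0.099) and Pcyt1a (0.109) for Csf2rb and by Pcyt1a (0.111) and Pitpna (0.118) for Csf2rb2. Gpam (0.066), Dip2b (0.076) and Utp25 (0.076) were nearest to Csf1r. The nearest to Csf1 were Tubb6 (0.183), Fth1 (0.230) and Cd300lb (0.241), and those nearest to Csf2ra were Rps20 (0.104), Rpl23 (0.105) and Dtnbp1 (0.124). For Csf3r, whose own SD was only 0.128, Zfp384 (0.089), Hk2 (0.090) and Sbf1 (0.090) came first. The libraries share 4 groups, so these are descriptions of profiles that follow the groups.

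Receptors related to the family were followed in a list of ligands and partners, of which 10 of 11 genes were found by symbol and 6 of those had enough counts to be tested for MCAO against sham. In control mice 3 were higher and 2 lower (31.2% and 32.3% of all genes), and in Vdr-cKO mice 3 higher and 0 lower by edgeR, DESeq2 and limma-voom (29.3% and 28.8%). In Vdr-cKO mice 1 was lower at unadjusted p under 0.05, as were 31.2% of all genes. Il3ra, the IL-3 receptor alpha chain that pairs with the beta chains, rose from 5.43 ± 0.506 to 33.9 ± 2.87 CPM in control (log2 fold change 2.61, SE 0.11, adjusted p = 1.85e-09) and from 4.35 ± 1.49 to 39.9 ± 8.19 CPM in Vdr-cKO mice (3.20, SE 0.24). Kit, the stem cell factor receptor, rose by 1.58 in control and 1.74 in Vdr-cKO mice on the log2 scale, and Flt3, a receptor of the same family as CSF1R and KIT, by 0.68 and 1.36. Flt3l, the ligand of FLT3, was lower in control (-0.51, adjusted p = 0.0065), and in Vdr-cKO mice its value was -0.18 (adjusted p = 0.522). Kitl, the ligand of KIT, held a mean of 29.3, 26.6, 27.3 and 23.8 CPM in sham control, sham Vdr-cKO, MCAO control and MCAO Vdr-cKO libraries, with log2 values of -0.13 (adjusted p = 0.333) and -0.16 (adjusted p = 0.374) for MCAO against sham. No gene of this list passed between genotypes after MCAO by edgeR, DESeq2 or limma-voom. At an unadjusted p under 0.05, 1 was higher, where 10.1% of all genes were higher and 9.54% lower.

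Of 28 genes that carry the CSF1R signal (Src-family kinases, adaptors, PI3K, MAP kinases and their inhibitors), 12 were higher and 7 lower after MCAO in control, and 18 higher and 4 lower in Vdr-cKO mice. Over all genes, 31.2% were higher and 32.3% lower in control and 29.3% and 28.8% in Vdr-cKO mice. The median log2 fold change was 0.17 in control (all genes -0.05) and 0.38 in Vdr-cKO mice (all genes -0.02). Fgr, a myeloid Src-family kinase, rose most, by 2.83 (SE 0.20) in control and 3.00 (SE 0.28) in Vdr-cKO mice. Pik3ap1, an adaptor of PI3K, rose by 0.69 and 1.28, Gab2, a docking protein, by 0.76 and 0.74, Tyrobp, the adaptor DAP12, by 0.87 and 0.92, and Dok2, an adaptor that restrains tyrosine kinase signals, by 1.28 and 1.86. Src itself was lower, at -1.02 (SE 0.11) and -0.72 (SE 0.12).

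Between genotypes after MCAO, 4 of these 28 genes were higher in Vdr-cKO and 0 lower by edgeR, against 3.24% and 1.64% of all genes, with a median of 0.12 against 0.01. DESeq2 called 5 higher and 0 lower and limma-voom 4 and 0, and 8 were higher and 3 lower with unadjusted p under 0.05 (10.1% and 9.54% of all genes). Among them were Pik3ap1 (log2 0.64, SE 0.11, adjusted p = 0.00544), Dok1, another restraining adaptor (0.46, SE 0.11, adjusted p = 0.0364), and Socs1, an inhibitor of JAK kinases (2.22, SE 0.40, adjusted p = 0.00732). Dok1 held a mean of 46.4, 39.2, 33.9 and 46.1 CPM in sham control, sham Vdr-cKO, MCAO control and MCAO Vdr-cKO libraries. Socs1 held 3.95, 4.75, 2.17 and 10.1 CPM in the same order. In control mice the means of both were thus lower after MCAO than after sham. In the interaction, edgeR called 2 of the 28 higher and 0 lower, against 1.40% and 1.15% of all genes, with Pik3ap1 among them (0.58, SE 0.14, adjusted p = 0.0247). Monocyte markers moved in the same comparison, with 3 of 10 higher in Vdr-cKO (Ly6c2 3.58, Plac8 2.66 and Ms4a4c 2.64) and a median of 1.00, and their part in these differences was not tested.

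**Figure D4:**
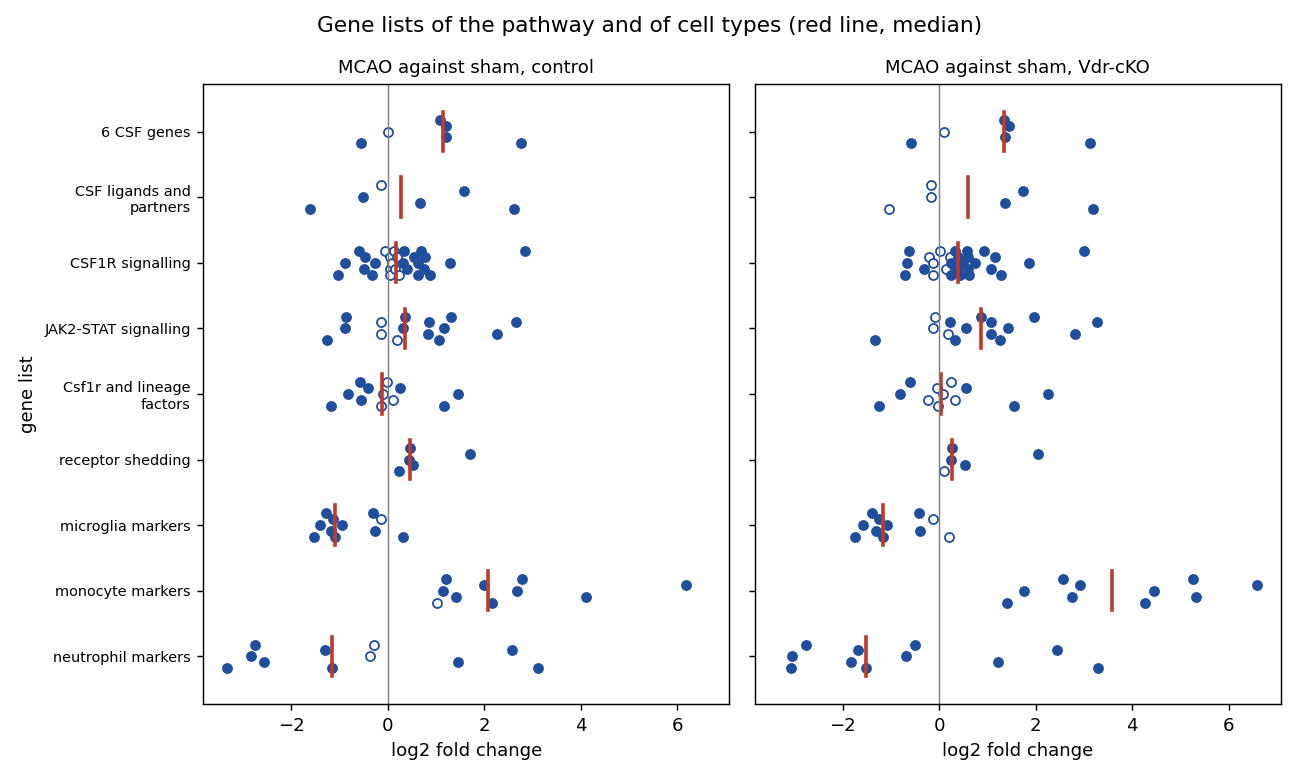
Log2 fold change of MCAO against sham (x axis) in control (left) and Vdr-cKO mice (right) for the 6 genes, the 5 pathway lists and the markers of 3 cell types (y axis). Each point is a gene, filled where its adjusted p was under 0.05, and the red line is the list's median, which for monocyte markers was 2.08 in control and 3.59 in Vdr-cKO mice.

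Among 15 genes of JAK2 and STAT signalling downstream of the GM-CSF and G-CSF receptors, 9 were higher and 3 lower after MCAO in control (median 0.35) and 11 higher and 1 lower in Vdr-cKO mice (median 0.86), beside the shares of all genes given above. Pim1, a survival kinase induced by STAT5, rose by 2.66 (SE 0.23) in control and 3.28 (SE 0.28) in Vdr-cKO mice, and the cytokine gene Osm, another STAT5 target, by 2.26 and 2.82. Mcl1, which opposes apoptosis, rose by 1.05 and 1.42, Stat3 by 0.86 and 0.86, and the feedback inhibitor Socs3 by 1.17 and 1.96. The mean of Socs3 was 163 ± 61.4 CPM in sham control and 87.6 ± 4.31 in sham Vdr-cKO libraries. After MCAO it was 372 ± 70.0 CPM in control and 342 ± 91.4 in Vdr-cKO libraries. Cish, also a STAT5-induced inhibitor, moved the other way, at -1.26 and -1.34. After MCAO, Socs1 (given above) and Ccnd2, the cell cycle gene of cyclin D2 (1.04, SE 0.26, adjusted p = 0.0425), were the 2 genes of this list higher in Vdr-cKO than in control, where 3.24% of all genes were called higher and 1.64% lower. Ccnd2 held a mean of 20.5, 25.0, 11.6 and 23.6 CPM in sham control, sham Vdr-cKO, MCAO control and MCAO Vdr-cKO libraries. Limma-voom called 1 of this list higher and DESeq2 3, and 4 were higher with unadjusted p under 0.05, while 0 were lower by edgeR, limma-voom or DESeq2 or with unadjusted p under 0.05. Over all genes, 10.1% were higher and 9.54% lower with unadjusted p under 0.05. In the interaction, 0 of the 15 passed by edgeR or limma-voom and 1 was higher by DESeq2, where edgeR called 1.40% of all genes higher and 1.15% lower. With unadjusted p under 0.05, 3 were higher and 0 lower in the interaction, against 7.09% and 7.69% of all genes.

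Transcription factors of the Csf1r gene and the macrophage lineage went in both directions, with 3 of 12 higher and 5 lower after MCAO in control and 3 higher and 3 lower in Vdr-cKO mice (medians -0.12 and 0.03). Of all genes, 31.2% and 32.3% were higher and lower in control and 29.3% and 28.8% in Vdr-cKO mice, so these counts lie near the background. Sall1, a microglial identity factor, fell by 1.18 and 1.24, Maf by 0.83 and 0.60 and Mef2c by 0.55 and 0.82 on the log2 scale. Ets2 rose by 1.46 and 1.56. Spi1, which encodes PU.1, the factor best known to drive Csf1r, rose by 0.26 (SE 0.08) and 0.55 (SE 0.11) while Csf1r fell. Irf5 was lower after MCAO in control (-0.57, SE 0.09) but at -0.04 (adjusted p = 0.754) in Vdr-cKO mice, with an interaction of 0.52 (SE 0.13, adjusted p = 0.0411) and a genotype difference of 0.36 (SE 0.09, adjusted p = 0.0369) after MCAO.

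All 5 genes of receptor shedding, the process by which CSF1R is cut from the cell surface, were higher after MCAO in control, and 4 of them in Vdr-cKO, against 31.2% and 29.3% of all genes. Rhbdf2, the partner of the sheddase ADAM17, rose by 1.70 (SE 0.10) and 2.05 (SE 0.15), and Adam17 itself by 0.43 and 0.26. Adam10 rose by 0.46 and 0.24, and Ncstn, a subunit of gamma-secretase, by 0.52 and 0.55. None of them passed between genotypes after MCAO by edgeR or limma-voom (1 by DESeq2, and 1 higher and 1 lower at an unadjusted p under 0.05, against 10.1% and 9.54% of all genes). In the sham comparison of genotypes, 0 genes of any of the 5 pathway lists passed by edgeR, DESeq2 or limma-voom, with 0 higher and 0 to 2 lower per list at an unadjusted p under 0.05. Few genes passed there at all, with 0.444% of all genes called higher and 0.0244% lower by edgeR. At an unadjusted p under 0.05, 5.96% of all genes were higher and 5.22% lower.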

How the data were processed

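Microglia/macrophages were sorted as CD11b+ CD45int cells per the labels, and RNA was depleted of ribosomal RNA, whereas the study's methods describe CD11b microbeads and poly-A selection; this difference was not resolved. The authors deposited 1 table of raw counts per gene, whole numbers that were not normalized. The submitters' processing notes name HISAT2 2.1.0, TopHat, bcl2fastq, limma and the build GRCm38; the counting tool and its strand setting were not given in the sources used here. Sham control columns carry a read-file ending that the others lack, so a difference in handling cannot be told apart from that group.

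Each pair of groups was fitted on its own libraries with edgeR 4.0.16 in R 4.3.3 (filterByExpr, TMM scaling, quasi-likelihood test, Benjamini-Hochberg adjustment over all genes tested). The interaction was fitted on all 16 libraries. Adjusted p under 0.05 counted as called. Levels (CPM) are counts scaled to 1000000 per library after TMM scaling over the 16 libraries, and CPM per kb divides these by the length of the union exon model of GENCODE M21. Shares were compared with two-sided exact permutation tests in scipy 1.17.1. The edgeR fit, and no other step, was tested on simulated counts. Positions are those of GENCODE M21, since 679 of the 31489 genes with a model had the same start and end in the deposited table, whose positions were not used. Promoters came from RefSeq (GRCm38.p6), with entries for Csf1, Csf2ra, Csf2rb2 and Csf3r used.

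The members and the gene lists were chosen with earlier results of these data known. Beside the 6 members, the text names up to 4 called genes with the smallest adjusted p per pathway list and comparison. It also names every ligand and the 3 genes of most similar profile. A gene named in 1 comparison is given in some but not all of the others, and Cish and Spi1 were chosen after their values were seen. One gene that the rule names is not reported here. Alternatives were RLE and upper quartile scaling, no filter, at least 10 counts in every library, DESeq2 1.42.0, limma-voom (limma 3.58.1), all libraries in 1 fit, a replicate block, the beta chain pair summed, and libraries left out.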

Additional observations from a re-analysis of the deposited data

Results flagged for a closer look

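Csf3r in MCAO control replicate 1 stood at 1372 CPM, far from the other 3 libraries of its group (1058 to 1097 CPM), by Dixon's test at the 95% level. It was the only one of 21 groups of values tested that was singled out, and chance alone gives about 1 in 20. The same library had the highest sum of neutrophil markers (1424 CPM), of monocyte markers (890.0 CPM) and of dividing cell markers (892 CPM) in its group.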

How the results depend on the processing

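All calls of Csf1, Csf1r, Csf2ra, Csf2rb and Csf2rb2 between MCAO and sham held under the 19 alternatives in control and the 17 in Vdr-cKO mice, with Csf1 at 2.58 to 3.12 and 2.95 to 3.24 and Csf1r at -0.73 to -0.48 and -0.75 to -0.45 on the log2 scale. Csf3r was called in none of them. Upper quartile scaling shifted the median of all genes by -0.18 in control and -0.17 in Vdr-cKO mice, and Csf3r then stood at -0.18 and -0.07. The genotype difference of Csf1 after MCAO was called under 8 of 18 alternatives (adjusted p 0.00678 to 0.158). It lost the call in the fit of all 16 libraries (0.399, adjusted p = 0.106), with the replicate block (0.398, adjusted p = 0.0552) and without MCAO Vdr-cKO replicates 1 and 2 (0.396), and leaving out 1 replicate gave 0.324 to 0.452. The cause was not tested.

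Counts of called genes over the whole table moved more. After MCAO, genes lower in Vdr-cKO numbered 250, or 512 by DESeq2 and 103 to 257 with 1 replicate left out. In sham mice, the 73 genes higher in Vdr-cKO became 124 with no filter, 178 by DESeq2, 147 in the fit of all libraries, 3 with the replicate block, 5 without sham control replicates 2, 4 and 5, and 6 to 161 with 1 replicate left out. The 4 lower became 16, 70, 13, 0, 0 and 0 to 19 in the same order. For the interaction, the 243 higher became 398 by DESeq2, 122 without sham control replicates 2, 4 and 5, and 166 to 368 with 1 replicate left out, and the 199 lower became 350, 60 and 105 to 358, and 117 with the replicate block. The deviations of same-numbered libraries had correlations of -0.53 to 0.44 over the comparisons, with 0 to 2 libraries closest to their own number. With 3 or 4 such pairs per comparison, this check cannot exclude a pairing, which the sources do not state. The block is therefore given only here.

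Depth did not limit the members, whose lowest count was 304, but it did limit Csf2, Csf3, Il5 and Il34. Csf2rb and Csf2rb2 cannot be separated where their exons are identical, and with their counts summed no call of the other members changed.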
